A study of Homo sapiens with 44 samples.

Results

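The comparison set cells 3 h after release from a thymidine block against cells still at its end (0 h). It used 8 of the 44 libraries of the series, chosen by their labels alone: Tet minus and Tet plus at 3 h (4 libraries) and Tet minus and Tet plus at 0 h (4 libraries), each group with replicates 1 and 2. All 8 came from the neuroblastoma line IMR5/75, whose MYCN gene is amplified and into which a tetracycline-inducible shRNA (a short hairpin RNA) targeting MYCN had been placed. Tet minus cells had no tetracycline and Tet plus cells had it. The labels read here name neither the length of the tetracycline treatment nor whether the line is a single clone. Both arms had been held for 18 h with thymidine, so every group shares that block. The 0 h libraries were collected at its end and the 3 h libraries after washout. ERCC spike-ins were added to total RNA and ribosomal RNA was removed before library preparation, so transcripts without a poly(A) tail were kept. Replicate 1 of every group carries lane number 8 and replicate 2 lane number 4, and replicate number was a term of every fit unless stated.

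Excess thymidine feeds back on ribonucleotide reductase, starves the replication fork of deoxycytidine nucleotides and stops cells at the start of S phase. Washout lets replication go on. Replication-dependent histone genes, which sit mostly in clusters, are transcribed in S phase, and their messages end in a stem-loop in place of a poly(A) tail and decay when replication stops. Immediate early genes such as EGR1 and FOS respond within minutes to growth factor signalling through the ERK kinases, and the Sprouty proteins and dual-specificity phosphatases that the same pathway induces then restrain it.

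The libraries held 14570027 to 23979347 gene counts and 15955 to 16352 genes with a count. ERCC transcripts took 0.806% to 3.90% of all counts, more in each replicate 2 library than in any replicate 1 library. Within pairs of arm and replicate their share differed between 3 h and 0 h by -0.13 on the log2 scale (exact permutation p = 0.375, 2-sided, where 4 pairs cannot go below 0.125). All 12 noradrenergic neuroblastoma markers were in the table and 11 passed the filter on low counts, TH being the one that did not. The summed epithelial markers reached 2.15 CPM at most (CPM are counts scaled to a common library size with TMM factors), with KRT14 at 0, and the summed blood markers 0.622 CPM, with CD3E and HBB among those at 0. The noradrenergic markers summed to 1185 to 2061 CPM at 0 h and 1397 to 2046 CPM at 3 h. The 10 mesenchymal or Schwann-like markers, 8 of them tested, summed to 260 to 624 CPM at 0 h and 279 to 629 CPM at 3 h. The library Tet plus 3 h replicate 2 stood apart. The change from 0 h in its pair correlated with that of the other pairs at r = 0.337, -0.0707 and 0.0754 across 10264 genes, against 0.590 to 0.659 among the other 3 pairs. The main results and the counts of each list that move without it are given with and without it.

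MYCN, the target of the shRNA, had 1122 and 988 CPM in the Tet minus libraries at 0 h (replicates 1 and 2) and 1365 and 1421 CPM at 3 h, and 1045 and 962 CPM at 0 h and 1251 and 1049 CPM at 3 h in Tet plus. The log2 difference of Tet plus from Tet minus was -0.07 ± 0.12 (SE) at 0 h and -0.28 ± 0.12 at 3 h, and neither passed the test (edgeR adjusted p = 0.783 and 0.176). CDKN1A, which encodes the kinase inhibitor p21, was higher in Tet plus at 0 h by 0.66 ± 0.12 (edgeR adjusted p = 0.0115), in a comparison that called 4.17% of genes. MYCN itself was nominally higher at 3 h in 4 of 4 pairs, by 0.30 ± 0.09, and missed the threshold (edgeR adjusted p = 0.0924), which it passed without Tet plus 3 h replicate 2 (edgeR adjusted p = 0.00521). Tet minus and Tet plus are therefore used here as the names of libraries so labelled, since a lower MYCN level in Tet plus was not shown at these times.

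Of 13968 genes tested, 321 were higher at 3 h (2.3% of the genes tested) and 86 were lower (0.616%), at an adjusted p under 0.05 in edgeR's quasi-likelihood test with arm and replicate as terms. At least a 2-fold change was seen for 143 of the genes that rose and 2 of those that fell. The genes that rose were led by histone genes and by immediate early and ERK feedback genes, and those that fell included heat shock chaperones and sestrins. Without Tet plus 3 h replicate 2 the counts were 1113 higher (7.97%) and 843 lower (6.04%), and leaving out any other single library gave 125 to 274 higher and 6 to 53 lower. Scaled to the ERCC spike-ins, which moves the median log2 fold change of all genes from -0.0044 to 0.10, the counts were 373 higher (2.67%) and 11 lower. In bulk RNA, a change in the number of cells in a state and a change of RNA per cell cannot be told apart.

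The replication-dependent histone genes rose together. The table holds 73 of them, 45 passed the filter, and all 45 tested were higher at 3 h (2.3% of all genes were). The filter can pass a gene on its 3 h counts alone. Of the 38 with at least 10 counts in each 0 h library, all 38 rose. The other 28 were not tested and had at most 31 counts in the 8 libraries together, 16 of them none. For 41 of the 45, all 3 h libraries lay above all 0 h libraries, as for 2.59% of all genes. The median log2 fold change was 2.06, which is 4.18-fold, against -0.0044 for all genes tested. As a share of gene counts the 73 histone genes took 0.597% to 0.921% at 0 h and 1.92% to 3.65% at 3 h, so the lowest 3 h library lay above the highest 0 h library. The share went from 0.865% to 3.65% and from 0.623% to 2.33% in the Tet minus pairs and from 0.921% to 2.95% and from 0.597% to 1.92% in the Tet plus pairs.

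The promoters of HIST1H2AB and HIST1H2BJ are shown because these genes, encoding a core histone H2A and H2B, had 2 of the 3 highest log2 fold changes among genes whose mean log2 CPM was 3 or more. Each is the 250 bases before the gene start on the minus strand of RefSeq build GRCh38.p14 (chr6:26033619-26033868 and chr6:27132796-27133045), written 5′ to 3′ on the gene's strand. Capitals mark the octamer core, searched as ATTTGCA, the CCAAT box, searched as those letters, and the TATA box, each on either strand, and overlapping matches run together.
HIST1H2AB: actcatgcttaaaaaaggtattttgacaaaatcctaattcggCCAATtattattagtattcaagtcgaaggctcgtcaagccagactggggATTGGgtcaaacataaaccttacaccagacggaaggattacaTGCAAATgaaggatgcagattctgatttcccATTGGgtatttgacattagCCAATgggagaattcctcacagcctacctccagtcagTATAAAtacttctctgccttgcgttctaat
HIST1H2BJ: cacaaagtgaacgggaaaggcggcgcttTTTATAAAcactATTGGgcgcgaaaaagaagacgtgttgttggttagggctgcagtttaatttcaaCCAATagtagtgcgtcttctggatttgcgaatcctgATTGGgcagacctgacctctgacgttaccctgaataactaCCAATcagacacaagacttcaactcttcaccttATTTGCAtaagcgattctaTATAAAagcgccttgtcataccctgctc
Both hold 1 octamer core and 4 CCAAT boxes, and each has a TATA box whose first base lies 28 (HIST1H2BJ) or 30 (HIST1H2AB) bases before the start. Of the 45 histone genes tested, 36 matched a RefSeq promoter of 250 bases before to 50 after the start, and 29 of these (80.6%) held a CCAAT box, against 35.7% of all 27305 promoters. The octamer core was in 16 (44.4% against 4.23% of all), of which 8 belonged to H2A and 7 to H2B genes, and in none of the 7 H4 promoters. The TATA box, searched as TATAAA, was in 26 (72.2% against 12.0%). Of the other motifs searched, the E2F core TTCCCGC was in 4 of the 36 (11.1%, against 6.56% of all promoters and 10.3% of the promoters of genes tested). The CHR element TTTGAA was in 16 (44.4% against 15.4% of all). The CRE core TGACGTC was in 6 (16.7% against 3.63%). A match describes letters in this window, and factor binding was not measured.

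HIST1H2AB had 11.2 and 12.5 CPM in the Tet minus libraries at 0 h (replicates 1 and 2) and 145 and 158 CPM at 3 h, and 13.01 and 10.7 CPM at 0 h and 109.6 and 111 CPM at 3 h in Tet plus. The lowest 3 h library was above the highest 0 h library. The log2 fold change was 3.45 ± 0.12 (SE from the fit to 8 libraries, edgeR adjusted p = 1.79e-08). For HIST1H2BJ the values were 132 and 114 CPM at 0 h and 1308 and 1006 at 3 h in Tet minus, and 139 and 96.9 then 1052 and 701 in Tet plus. These groups did not overlap either. The log2 fold change was 3.05 ± 0.10 (SE from the fit to 8 libraries, edgeR adjusted p = 1.79e-08). HIST3H2BB, an H2B gene outside the large cluster, went from 49.2 and 32.4 to 469 and 347 CPM in Tet minus and from 43.7 and 25.98 to 339.5 and 185 CPM in Tet plus (log2 fold change 3.12 ± 0.12, edgeR adjusted p = 1.94e-08). In all 3 genes the Tet minus change was nominally the larger (3.68, 3.22 and 3.34 against 3.21, 2.89 and 2.90 in Tet plus), and no difference between the arms passed the adjusted test.

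All 5 histone types rose. The median log2 fold change was 2.19 for the 12 H2A genes tested, 2.14 for the 17 H2B genes, 2.06 for the 5 H3 genes, 1.66 for the 3 genes of linker histone H1 and 1.51 for the 8 H4 genes. Among H4 genes the range ran from 1.11 for HIST1H4C to 2.78 for HIST1H4B, so genes for the same protein differed in how far they rose. The smallest changes of all were 0.83 ± 0.13 for HIST2H2BC and 0.93 ± 0.14 for HIST1H2BN, which lost its call without Tet plus 0 h replicate 1 (edgeR adjusted p = 0.0656). HIST1H2AJ and HIST1H2BM had at most 0.0953 and 0.107 CPM at 0 h, against 5.51 and 8.11 and 5.11 and 2.74 CPM at 3 h in Tet minus, and no fold is given for them because so few counts lie below it. Histone genes of a type are nearly identical in sequence, and how reads that match several of them were counted is not stated, so single-gene values are less certain than the family's. In Tet minus 45 of the 45 passed the test and in Tet plus 41, with medians of 2.14 and 1.82. The count over both arms was 43 to 45 whichever library was left out and 36 without the replicate term.

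**Figure D1:**
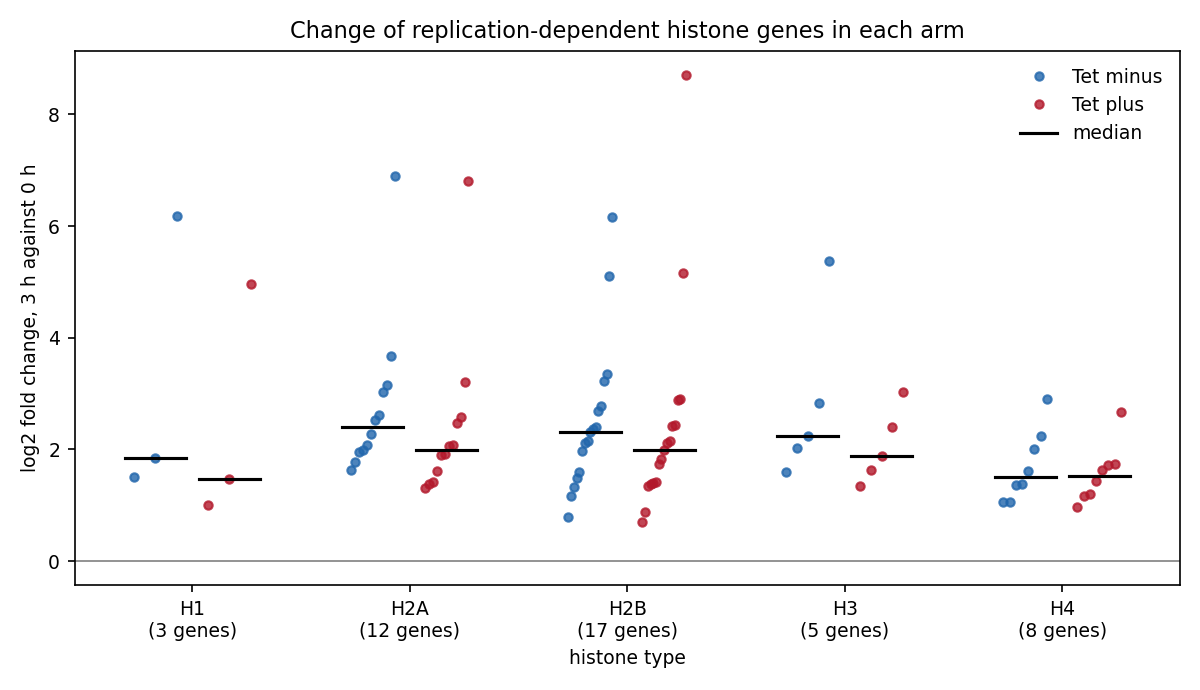
Log2 fold change from 0 to 3 h of the 45 histone genes tested, by histone type, in Tet minus (blue) and Tet plus (red), with the median of each group as a black bar. All points lie above 0, and the H4 median is the lowest of the 5 in Tet minus and lies near the H1 median in Tet plus (1.53 and 1.47).

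**Figure D2:**
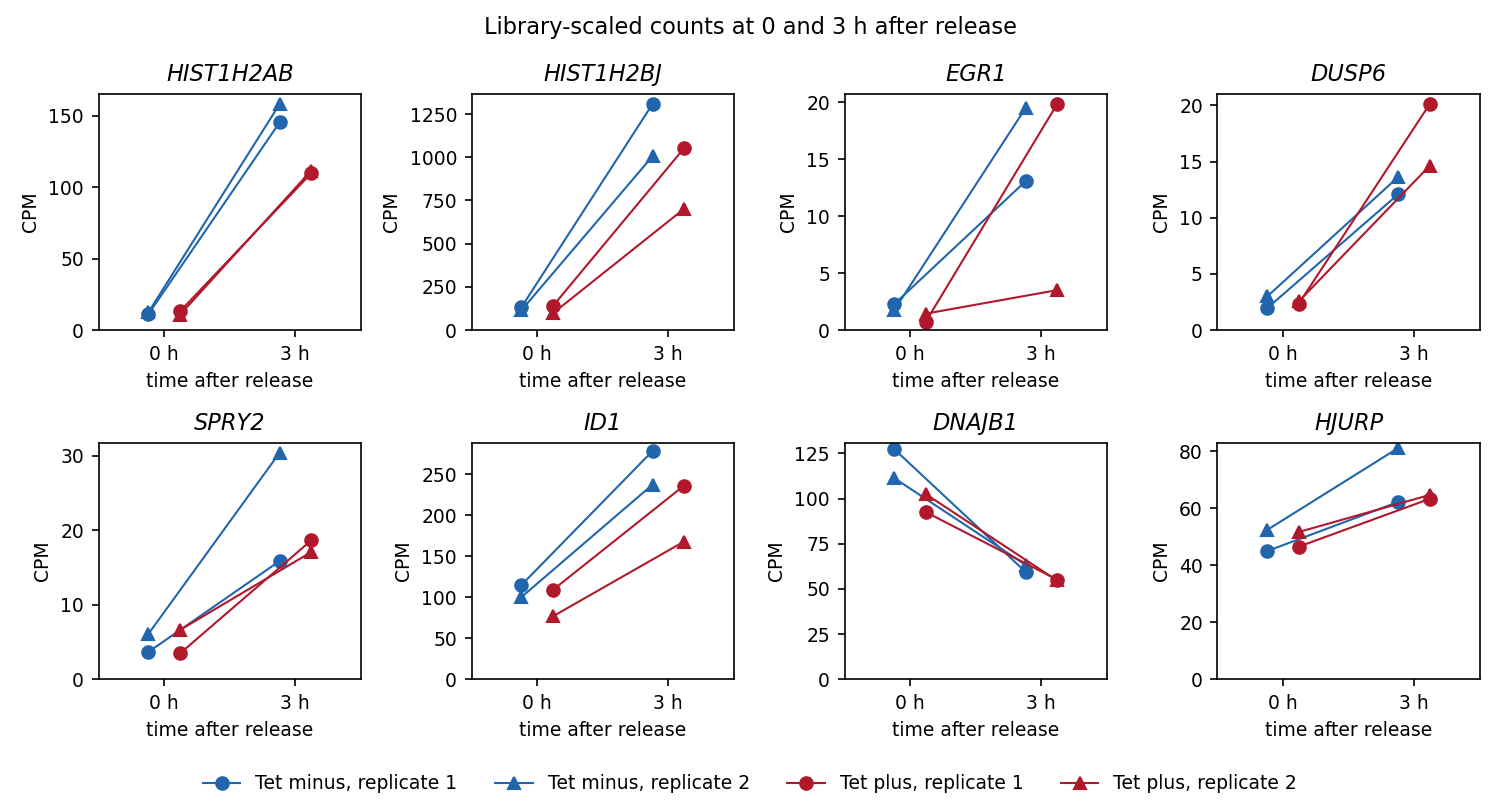
Library-scaled counts (CPM, linear axes from 0) of 8 genes at 0 and 3 h, where each line joins the 2 libraries of an arm and replicate. HIST1H2AB, HIST1H2BJ, DUSP6, SPRY2, ID1 and HJURP rose in 4 of 4 pairs and DNAJB1 fell in 4 of 4, while EGR1 reached only 3.50 CPM in Tet plus 3 h replicate 2.

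Genes that make and process histone messages or copy DNA did not pass the test. Of 11 genes of histone mRNA transcription and processing, none was called, among them SLBP, the stem-loop binding protein (log2 fold change -0.05 ± 0.10), and NPAT, the coactivator of histone genes (0.05 ± 0.09). For 2 of the 11, all 3 h libraries lay below all 0 h libraries, against 1.77% of all genes. None of 28 origin licensing and firing genes was called (range -0.23 to 0.18), none of 39 replication fork and chromatin assembly genes (-0.26 to 0.18), none of 24 nucleotide synthesis genes (-0.21 to 0.49) and none of 24 G1 cyclins, kinases and E2F factors (-0.29 to 0.25). MCM7, a subunit of the replicative helicase, had 700.1 and 661 CPM at 0 h and 781 and 795 at 3 h in Tet minus, and 655 and 552 then 675 and 595 in Tet plus, and its groups overlapped (log2 fold change 0.14 ± 0.08, edgeR adjusted p = 0.441). Of 40 genes of replication stress signalling and DNA repair none passed, and their median was -0.081. FANCM, which remodels stalled forks, came nearest the threshold (log2 fold change -0.37 ± 0.11, edgeR adjusted p = 0.0928). DESeq2 called none in these 6 lists either. At an unadjusted p under 0.05 edgeR had 2 of the 11, 1 of the 28, 2 of the 39, 1 of the 24 nucleotide genes, 3 of the 24 G1 genes and 6 of the 40, where 15.8% of all genes had one. Without Tet plus 3 h replicate 2, when 6.04% of all genes were called lower, 5 of the 39 fork genes, 5 of the 40 repair genes, 3 of the 24 G1 genes, 2 of the 24 nucleotide genes, 1 of the 28 origin genes and 1 of the 11 histone mRNA genes were lower. In that fit 1 fork, 1 repair and 1 G1 gene were higher.

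Immediate early and ERK feedback genes also rose. Of 40 listed, 38 were tested, 18 were higher (47.4%, against 2.3% of all genes) and 1, JUN, was lower, with a median log2 fold change of 0.91. Among the feedback inhibitors, SPRY2 and SPRY4 are Sprouty proteins, and DUSP4, DUSP5 and DUSP6 are phosphatases that inactivate ERK and other MAP kinases. The list also holds ETV4 and ETV5, ETS factors downstream of ERK. DUSP6 had 1.95 and 2.99 CPM in the Tet minus libraries at 0 h (replicates 1 and 2) and 12.1 and 13.7 CPM at 3 h, and 2.35 and 2.55 CPM at 0 h and 20.2 and 14.6 CPM at 3 h in Tet plus. All 3 h values lay above all 0 h values. The log2 fold change was 2.61 ± 0.18 (SE from the fit to 8 libraries, edgeR adjusted p = 2.61e-06). SPRY4 went from under 1 CPM in each 0 h library to 8.54 and 16.3 CPM in Tet minus and 10.5 and 4.05 CPM in Tet plus. Its log2 fold change was 3.67 ± 0.39 (SE from the fit to 8 libraries, edgeR adjusted p = 0.000163). SPRY2 stood at 3.67 and 6.10 CPM at 0 h and 15.9 and 30.4 at 3 h in Tet minus, and 3.46 and 6.61 then 18.6 and 17.1 in Tet plus, again without overlap (log2 fold change 2.07 ± 0.18, edgeR adjusted p = 2.88e-05). For 16 of the 38 genes all 3 h libraries lay above all 0 h libraries, as for 2.59% of all genes. DUSP5 rose by 2.42 ± 0.33, DUSP4 by 1.21 ± 0.12, ETV4 by 1.98 ± 0.25 and ETV5 by 1.42 ± 0.17 (log2). DUSP5 missed the threshold without Tet plus 0 h replicate 1 (edgeR adjusted p = 0.058).

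Several transcription factors of the immediate early response rose, and JUN fell. EGR1, a zinc-finger factor, had 2.29 and 1.76 CPM in the Tet minus libraries at 0 h (replicates 1 and 2) and 13.1 and 19.5 CPM at 3 h, and 0.741 and 1.44 CPM at 0 h and 19.8 and 3.50 CPM at 3 h in Tet plus. The groups did not overlap, but Tet plus 3 h replicate 2 was lower than the other 3 h libraries, and EGR1 lost its call without Tet plus 0 h replicate 1 (edgeR adjusted p = 0.0521 against 0.00179). The EGR1 promoter is shown because serum response factor binds CArG boxes and SRF was on the list, and the 250 bases before its start (chr5:138465229-138465478, plus strand, GRCh38.p14) hold 2 of them, in capitals, whose first bases lie 105 and 83 bases before the start.
EGR1: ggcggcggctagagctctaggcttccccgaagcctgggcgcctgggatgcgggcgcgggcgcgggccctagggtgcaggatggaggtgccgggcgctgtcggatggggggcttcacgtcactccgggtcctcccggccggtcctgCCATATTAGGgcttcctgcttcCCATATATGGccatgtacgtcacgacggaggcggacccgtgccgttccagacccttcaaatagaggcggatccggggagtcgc
A CArG box was in 1.29% of all promoters of the RefSeq table. For the 18 genes of this list that rose, 10 matched a promoter, which is 55.6%, so no share is given for them. NAB2, a corepressor of EGR factors that was not on the list, went from 45.5 and 39.5 to 327 and 285 CPM in Tet minus, from 49.7 to 302 CPM in Tet plus replicate 1 and from 39.9 to 57.4 CPM in Tet plus replicate 2 (log2 fold change 2.33 ± 0.34, edgeR adjusted p = 0.00264, and 0.0596 without Tet plus 0 h replicate 1). FOS, a partner in AP-1, rose by 2.48 ± 0.32, FOSL2 by 1.43 ± 0.20, IER2 by 1.14 ± 0.18, JUNB by 1.08 ± 0.23 and SRF by 0.68 ± 0.13 (log2). JUNB and SRF each lost the call without 5 of the 8 libraries taken singly, with edgeR adjusted p up to 0.169 and 0.109. JUN, which pairs with FOS in AP-1, had 114 and 99.6 CPM at 0 h and 84.7 and 81.4 at 3 h in Tet minus, and 165 and 131 then 93.96 and 101 in Tet plus, and fell by 0.48 on the log2 scale (edgeR adjusted p = 0.0208). JUN lost its call without 4 of the 8 libraries taken singly and under ERCC scaling.

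Within pairs, the median log2 change of the 38 genes was 1.07 and 1.39 in Tet minus, 1.05 in Tet plus replicate 1 and 0.12 in Tet plus replicate 2. So 3 of the 4 pairs were near each other, and the low one holds the library that stood apart. Without that library, 33 of the 38 rose, where 7.97% of all genes did. Within lane 8 alone 29 rose (5.37% of all genes) and within lane 4 alone, which holds it, 13 (0.723%). The count fell to 9 without Tet plus 0 h replicate 1 (0.902% of all genes) and to 11 without Tet minus 0 h replicate 1 (0.895%), and was 12 without the replicate term (0.666%). SPRY2, SPRY4, DUSP4, DUSP6, ETV4, FOS, FOSL2 and IER2 kept their call in each of 17 alternative fits.

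**Figure D3:**
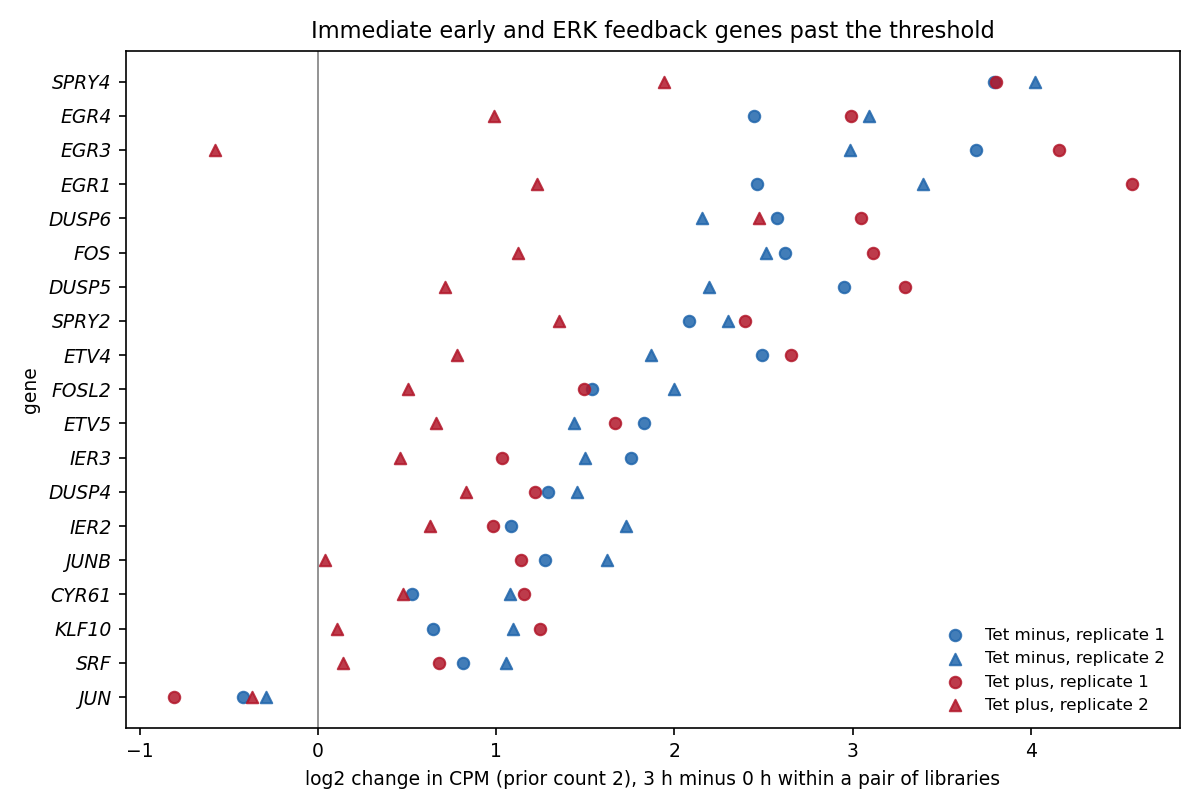
Log2 change in CPM (prior count 2) from 0 to 3 h within each pair of libraries for the 19 immediate early and ERK feedback genes past the threshold. Tet plus replicate 2 (red triangles) is the lowest of the 4 pairs for EGR1, FOS, DUSP5 and SPRY4, and for EGR3 it lies below 0, while for DUSP6 it lies within the range of the others.

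Targets and inhibitors of the BMP, Notch and Wnt pathways also rose, 9 of 20 tested (2.3% of all genes), with none lower. The count was 4 without Tet minus 0 h replicate 1 (0.895% of all genes), 4 without Tet plus 0 h replicate 1 (0.902%), 12 without Tet plus 3 h replicate 2 (7.97%) and 3 without the replicate term (0.666%). The ID proteins are inhibitors of basic helix-loop-helix factors and classic BMP targets. ID1 had 115 and 100.3 CPM in the Tet minus libraries at 0 h (replicates 1 and 2) and 279 and 238 CPM at 3 h. In Tet plus it had 109 and 76.8 CPM at 0 h and 236 and 168 CPM at 3 h. All 3 h libraries lay above all 0 h libraries. The log2 fold change was 1.19 ± 0.09 (SE from the fit to 8 libraries, edgeR adjusted p = 5.50e-06). ID3 rose by 1.08 ± 0.11, ID4 by 1.42 ± 0.15 and ID2 by 0.54 ± 0.12 (log2), and ID2 overlapped between the times and lost its call without 6 of the 8 libraries taken singly (edgeR adjusted p up to 0.134). DKK1, a secreted Wnt inhibitor, stood at 2.91 and 7.33 CPM at 0 h and 9.18 and 27.5 at 3 h in Tet minus, and 4.40 and 6.67 then 10.5 and 32.7 in Tet plus, which is a change of 1.78 ± 0.16 (edgeR adjusted p = 4.46e-05). It was higher in each replicate 2 library than in the replicate 1 library of its group, and its call was lost without the replicate term (edgeR adjusted p = 0.128). HES1, HES4 and HEY1, Notch targets, and BAMBI, a BMP pseudoreceptor, had adjusted p-values between 0.0184 and 0.0463 and each lost its call without 3 or more of the 8 libraries taken singly. MSX2, a homeobox gene downstream of BMP that was not on the list, rose by 1.71 ± 0.22 (edgeR adjusted p = 0.000871).

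Besides NAB2 and MSX2, the highest changes outside the lists, among called genes with a mean log2 CPM of 3 or more and higher in 4 of 4 pairs, were in SSTR5, CSPG4, TMC6 and CXXC5. SSTR5, a somatostatin receptor, had 6.43 and 7.11 CPM at 0 h and 38.3 and 38.5 at 3 h in Tet minus, and 13.5 and 12.4 then 40.5 and 23.3 in Tet plus, without overlap (log2 fold change 1.87 ± 0.23, edgeR adjusted p = 0.000814). CSPG4, the NG2 proteoglycan, rose by 1.56 ± 0.24, TMC6, a transmembrane channel-like protein, by 1.51 ± 0.20 and CXXC5, a zinc-finger protein, by 1.43 ± 0.23 (log2), and CSPG4 missed the threshold without Tet plus 0 h replicate 1 (edgeR adjusted p = 0.0521). H1F0, a linker histone that is not a member of the histone list, went from 68.8 and 68.02 to 210.2 and 236 CPM in Tet minus and from 95.3 and 115 to 210.2 and 166 CPM in Tet plus (log2 fold change 1.27 ± 0.16, edgeR adjusted p = 0.000997). SSTR5 and H1F0 kept their call in each of the 17 alternatives.

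Of 19 noradrenergic identity genes, 5 were called higher in Tet minus (2.36% of all genes) and 0 in Tet plus (0.566%), with medians of 0.22 and -0.024. The arm difference had an unadjusted edgeR p under 0.05 for 6 of the 19, against 7.25% of all genes. It passed the adjusted test for 0. Over both arms, 4 of the 19 were higher and 2 lower, against 2.3% and 0.616% of all genes. The counts were 7 and 3 without Tet plus 3 h replicate 2 (7.97% and 6.04% of all genes). They were 1 and 0 without Tet minus 0 h replicate 1 (0.895% and 0.043% of all genes). Without Tet plus 0 h replicate 1 they were also 1 and 0 (0.902% and 0.1%). TBX2, a T-box factor of the noradrenergic core circuit, had 541 and 508 CPM in the Tet minus libraries at 0 h (replicates 1 and 2) and 1027 and 1288 CPM at 3 h. In Tet plus it had 668 and 608 CPM at 0 h and 995 and 818 CPM at 3 h, and the times did not overlap. The log2 fold change was 0.82 ± 0.14 (SE from the fit to 8 libraries, edgeR adjusted p = 0.00655). TBX2 missed the threshold without Tet minus 0 h replicate 1 (edgeR adjusted p = 0.0542). GATA2 rose by 0.76 ± 0.17, ISL1 by 0.53 ± 0.10 and CHGA, a granule protein, by 0.41 ± 0.09, while HAND1 changed by -0.70 ± 0.14 and INSM2 by -0.45 ± 0.10 (log2). Each of these 5 lost its call without at least 3 of the 8 libraries taken singly, and the highest of those adjusted p-values were 0.202 for GATA2 and 0.252 for CHGA. None of the 13 mesenchymal or Schwann-like genes tested was called by edgeR (2 had an unadjusted p under 0.05) or DESeq2. Without Tet plus 3 h replicate 2, 2 of them were higher, against 7.97% of all genes.

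Heat shock chaperones were among the genes that fell. DNAJB1, the main HSP40 partner of HSP70, had 127 and 111 CPM in the Tet minus libraries at 0 h (replicates 1 and 2) and 59.5 and 63.4 CPM at 3 h, and 92.5 and 102 CPM at 0 h and 55.2 and 54.7 CPM at 3 h in Tet plus. All 3 h libraries lay below all 0 h libraries, with a fall of 0.89 on the log2 scale (SE 0.089, edgeR adjusted p = 9.88e-05). It kept its call whichever library was left out and missed the threshold within lane 4 alone (edgeR adjusted p = 0.101). HSPA1A and HSPA1B, the paired stress-inducible HSP70 genes, had log2 fold changes of -1.03 ± 0.21 and -0.69 ± 0.16. The HSPA1 genes are near-identical, so counts may be split between them, and each lost its call without 6 of the 8 libraries taken singly. These 3 were the only members called of 20 heat shock and unfolded protein response genes, where 0.616% of all genes were called lower, and the list's median was -0.14. The count was 7 without Tet plus 3 h replicate 2 (6.04% of all genes). It was 1 without Tet minus 0 h replicate 1 (0.043% of all genes) and 1 without Tet plus 0 h replicate 1 (0.1%). All 3 h libraries lay below all 0 h libraries for 2 of the 20, as for 1.77% of all genes. DNAJB4, another HSP40, changed by -0.77 ± 0.19 but lost its call without 7 of the 8 libraries taken singly.

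Of 27 p53 targets, 3 fell and 1 rose, against 0.616% and 2.3% of all genes, so the 1 that rose is near the share of all genes. The counts were 5 lower and 4 higher without Tet plus 3 h replicate 2 (6.04% and 7.97% of all genes). Without Tet minus 0 h replicate 1, 0 were lower and 0 higher (0.043% and 0.895% of all genes). The same held without the replicate term (0.0358% and 0.666%). Without Tet plus 0 h replicate 1, 0 were lower and 1 higher (0.1% and 0.902%). Under ERCC scaling 1 was lower and 1 higher (0.0788% and 2.67%). SESN1 and SESN2 encode sestrins, stress proteins that restrain mTORC1, and POLH encodes the translesion polymerase eta. SESN2 stood at 31.8 and 39.9 CPM at 0 h and 14.4 and 30.5 at 3 h in Tet minus, and 38.7 and 57.00 then 20.9 and 44.2 in Tet plus, lower at 3 h in 4 of 4 pairs although the groups overlapped across replicates (log2 fold change -0.69 ± 0.13, edgeR adjusted p = 0.0158). SESN1 changed by -0.57 ± 0.12 and POLH by -0.45 ± 0.09, while PMAIP1, the BH3-only protein NOXA, went the other way (0.52 ± 0.09). All 4 lost their call without 2 or more of the 8 libraries taken singly. CDKN1A, listed both here and with the CDK inhibitors, had a log2 fold change of 0.03 ± 0.09 (edgeR adjusted p = 0.929). None of the 7 CDK inhibitors tested was called by edgeR (2 had an unadjusted p under 0.05), and DESeq2 called 1 higher. Without Tet plus 3 h replicate 2, 1 of the 7 was higher, against 7.97% of all genes.

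The other low genes had no list in common. HERC2P2 fell by 0.76, TMEM169 by 0.77, NXPH2 by 0.85, TMEM101 by 0.70, MGAT4A by 0.70, PPARA by 0.69, KIF27 by 0.69 and LYST by 0.67 on the log2 scale, with edgeR adjusted p-values from 0.000613 to 0.021. PPARA is a nuclear receptor of fatty acid metabolism, LYST a lysosomal trafficking protein and NXPH2 a neurexophilin. DHFRL1, a retrocopy of dihydrofolate reductase, fell by 0.65 (edgeR adjusted p = 0.0106). HERC2P2 and DHFRL1 have near-identical relatives, and their values are uncertain for that reason. HERC2P2, TMEM169 and LYST kept their call whichever library was left out, and the other 6 each lost it without at least 1.

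Few genes of later cell-cycle phases passed the test at 3 h. Of 77 G2 and mitosis genes, 3 were higher: HJURP, the CENP-A chaperone, by 0.47 ± 0.09, ARHGAP11A by 0.37 ± 0.09 and KIF23, a cytokinesis kinesin, by 0.35 ± 0.08 (log2). That is 3.9% of the list against 2.3% of all genes, and the list's median was 0.072. For 7 of the 77, all 3 h libraries lay above all 0 h libraries, against 2.59% of all genes. HJURP had 45.02 and 52.5 CPM at 0 h and 62.3 and 81.2 at 3 h in Tet minus, and 46.6 and 51.7 then 63.4 and 64.7 in Tet plus, and its 3 h libraries lay above its 0 h libraries. None of the 3 was called without Tet minus 0 h replicate 1. Without Tet plus 3 h replicate 2 the list had 9 higher and 1 lower, against 7.97% and 6.04% of all genes. Among 14 circadian genes C1orf51, NR1D2 and PER2 rose (by 0.82, 0.48 and 0.66), and SLC2A1, the glucose transporter GLUT1, was the only one of 23 glycolysis genes to rise (0.48 ± 0.09), each list against 2.3% of all genes. PER2 lost its call without 7 of the 8 libraries taken singly, and NR1D2 and SLC2A1 each without 4. Without Tet plus 3 h replicate 2, 7 circadian and 4 glycolysis genes were higher (7.97% of all genes). Without Tet minus 0 h replicate 1 the counts were 1 and 0 (0.895% of all genes). None of 53 ribosome biogenesis genes, 13 MYC network genes, 18 hypoxia genes, 27 cholesterol and fatty acid synthesis genes or 6 abundant noncoding RNAs was called. At an unadjusted p under 0.05 edgeR had 5, 2, 5, 5 and 1 of them, and DESeq2 called 0, 1, 4, 2 and 0. Of 27 amino acid response genes 1, SESN2, was lower. Without Tet plus 3 h replicate 2, with 7.97% of all genes higher and 6.04% lower, the hypoxia list had 4 higher and 3 lower, the cholesterol list 6 lower, the MYC network 2 higher, ribosome biogenesis 3 higher and 1 lower, and the amino acid response 2 higher and 5 lower. MYC, at 1.29 CPM or less in every library, had a log2 fold change of 0.97 ± 0.33 (edgeR adjusted p = 0.158).

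Small nucleolar and Cajal body RNAs had medians of either sign among the pairs. Of 198 tested, 3 were higher, where 2.3% of all genes were. Under ERCC scaling 15 were higher (2.67% of all genes), so the list lies below the share of all genes in the one scaling and above it in the other. The count was 10 within lane 8, where 5.37% of all genes were higher. It was 9 without Tet plus 3 h replicate 2 (7.97% of all genes), with 1 lower (6.04%). Without Tet minus 0 h replicate 1 it was 0 (0.895%). The median change of the list was 0.52 and -0.20 in the Tet minus pairs and 0.024 and 0.42 in the Tet plus pairs. Their share of gene counts was lowest in Tet minus 0 h replicate 1 (0.224%) and highest in Tet plus 3 h replicate 2 (0.642%). MALAT1 and NEAT1, nuclear noncoding RNAs, took 0.663% of gene counts in Tet plus 0 h replicate 2 and 0.210% to 0.392% in the others. The part of these differences in the results above was not tested.

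**Figure D4:**
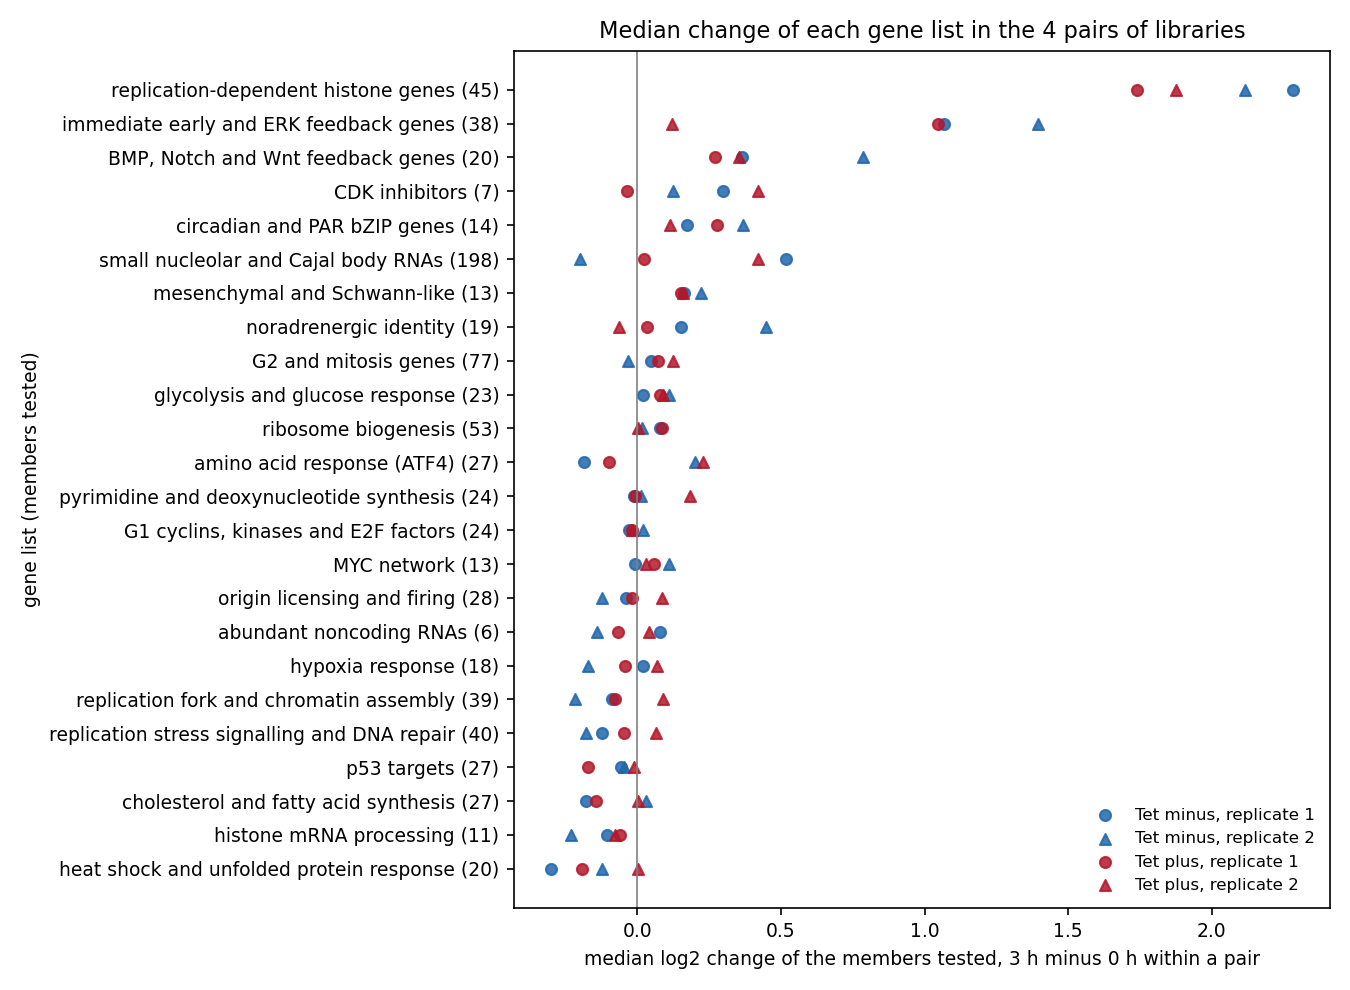
Median log2 change from 0 to 3 h of the tested members of 24 gene lists in each of the 4 pairs of libraries. The histone list lies between 1.74 and 2.28 in all pairs, the immediate early list at 0.12 in Tet plus replicate 2 and above 1 in the others, and the lists of replication genes lie near 0.

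The genes that passed the test in both arms moved in the same direction. Fitted by arm, 330 genes were higher (2.36%) and 112 lower (0.802%) in Tet minus, 442 in all (3.16%). In Tet plus 79 were higher (0.566%) and 2 lower (0.0143%), 81 in all (0.58%). Both arms called 74 genes, all in the same direction, which is 16.7% of the 442 called in Tet minus and 91.4% of the 81 called in Tet plus. The 74 include 41 histone genes. Of the 442 called in Tet minus, 434 (98.2%) had the same sign in Tet plus, against 54% of all genes tested. The arms share no library but share lanes and 1 fit. Across the 10264 genes whose mean log2 CPM was 3 or more the fold changes of the arms correlated at r = 0.504, and at r = 0.370 without the histone list, where genes are not independent replicates.

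Of all genes tested, 19.9% had an unadjusted edgeR p under 0.05 for the Tet minus change, against 7.12% for Tet plus. The change was nominally smaller in Tet plus for 327 of the 407 genes called over both arms (80.3%). How many of all genes had the smaller change in Tet plus was not counted. The 80.3% therefore has no share of all genes to be set against. The size of the gap differed between the pairs: the median change of the 276 called genes outside the histone list that rose was 0.919 and 1.01 in the Tet minus pairs, 0.747 in Tet plus replicate 1 and 0.484 in Tet plus replicate 2. The difference between the arms' changes passed the test for 0 genes (edgeR, smallest adjusted p = 0.622, DESeq2 also 0). An unadjusted edgeR p under 0.05 was found for 1012 genes (7.25%). Among these were 66 of the 407 genes called over both arms (16.2%) and 15 of the 45 histone genes tested. Without Tet plus 3 h replicate 1, the library that stood apart is the only Tet plus library at 3 h. Genes then passed the test of the arm difference, with changes higher or lower in Tet plus than in Tet minus. Without Tet plus 3 h replicate 2 none passed. Counts were also simulated gene by gene with each gene's fitted spread, so no simulated library stood apart. There the test of the arm difference recovered 49.3% of 2-fold and 90.9% of 3-fold differences, and 12.3% of its calls were false. In such counts a 2-fold difference between the arms was missed about as often as found. How often it is missed with a library that stands apart was not simulated.

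The genes with the smallest unadjusted p for that difference, given here as values since none passed, were H1F0, SSTR5, CHRM1, KCTD15, CASZ1, SAMD11, AGRN and H1FX, each with the lower change in Tet plus. For H1F0 the difference was -0.86 (unadjusted p = 0.000901, edgeR adjusted p = 0.622) and for SSTR5 -1.22 (unadjusted p = 0.000948, edgeR adjusted p = 0.622). CHRM1, a muscarinic acetylcholine receptor, had 10.00 and 5.61 CPM at 0 h and 22.96 and 17.8 at 3 h in Tet minus, and 22.9 and 17.7 then 32.7 and 16.97 in Tet plus, so it started higher in Tet plus and was raised in Tet plus replicate 1 but not in replicate 2. CASZ1, a zinc-finger transcription factor, changed by 1.75 in Tet minus and 0.57 in Tet plus. H1F0 and H1FX, both linker histones that are not on the histone list, changed by 1.70 and 0.75 in Tet minus and 0.84 and 0.16 in Tet plus.

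**Figure D5:**
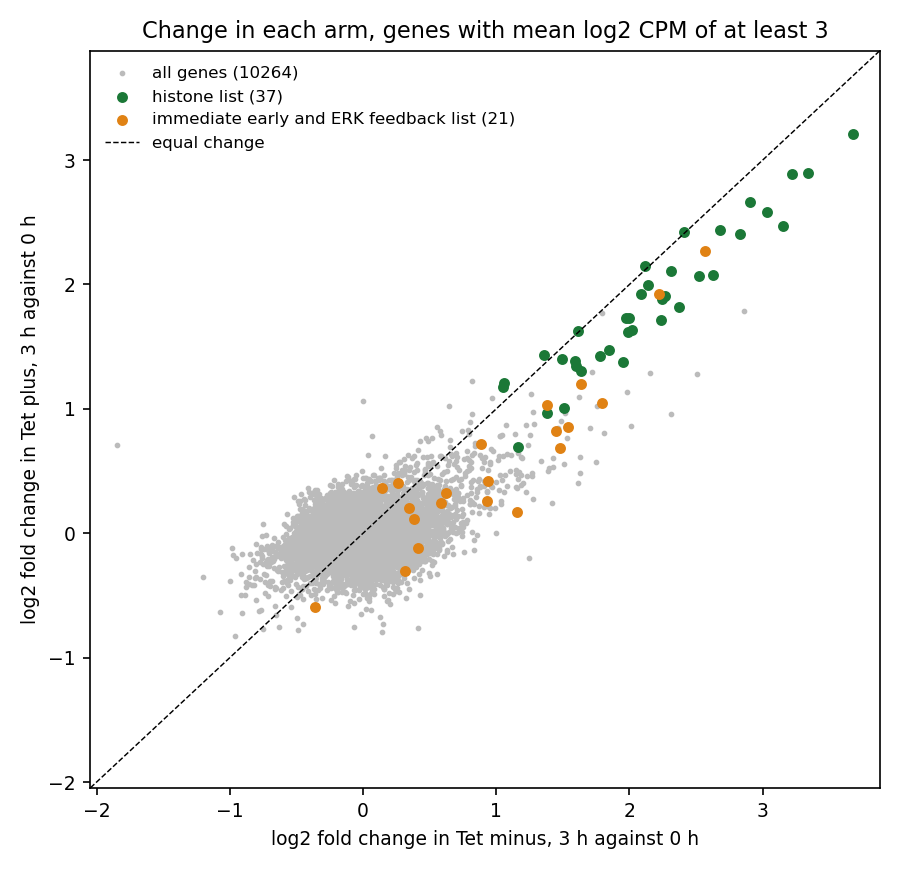
Log2 fold change from 0 to 3 h in Tet plus (vertical axis) against Tet minus (horizontal axis) for the 10264 genes whose mean log2 CPM was 3 or more, with 37 histone genes in green and 21 immediate early and ERK feedback genes in orange. The histone genes lie along or a little below the dashed line of equal change, and most of the immediate early genes lie further below it.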

How the data were processed

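RNA of 44 IMR5/75 libraries was sequenced, of which 8 were used. As deposited, the table gives raw read counts, in whole numbers and not normalized, for 23367 gene rows (5357 of them at 0 in the 8 libraries) and 92 ERCC rows. Per the submitters' processing notes, the tools were TopHat2 2.0.5 and HTSeq and the build was hg19. The HTSeq version, annotation and strand setting are not given in the sources used, so antisense partners such as MYCN and MYCNOS may share reads, and reads of near-identical genes may have been split or dropped. Per the labels' protocols, ERCC mix was added to the RNA before ribosomal RNA depletion and the library kit was directional.

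The tests ran in R 4.3.3 with edgeR 4.0.16 (TMM on gene rows, filterByExpr by group leaving 13968 genes, quasi-likelihood test, Benjamini-Hochberg adjustment over all genes tested, threshold 0.05). The change over both arms was fitted with arm, time and replicate (4 residual degrees of freedom). The changes by arm and their difference were fitted on 4 group means with replicate (3 residual degrees of freedom). SE is the log2 fold change divided by the root of F. Changes within pairs use log2 CPM with a prior count of 2.

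The design text calls the 2 replicates biological. Replicate number is also the lane number for these groups (8 and 4), and deviations from group means correlated between groups at r = 0.374 to 0.718 over the 6 pairs of groups, so replicate was kept as a term. The comparison, the gene lists and the markers were chosen with earlier results of these data known. Named genes were MYCN, the 12 highest and 12 lowest changes that passed the test, had one sign in 4 pairs and a mean log2 CPM no lower than 3, the members of each list with the smallest adjusted p (4 at most), all members of lists of 12 or fewer tested genes, and the 8 smallest p-values of the arm difference. The highest 12 outside the histone list, the other called list members, and the octamer and TATA motifs were added after values were seen. On simulated counts for 13968 genes with 200 changed, the fit over both arms recovered 71.6%, 94% and 98.5% of 1.5-fold, 2-fold and 3-fold changes, and 5.38% of its calls were false, against 8.33% for Tet minus, 8.22% for Tet plus and 12.3% for the arm difference. Alternatives were RLE or ERCC scaling, DESeq2 1.42.0, no filter, no replicate term, all 44 libraries and leaving out each library. Figures were drawn with matplotlib 3.10.9.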

Additional observations from a re-analysis of the deposited data

How the results depend on the processing

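Over both arms (321 genes higher, 86 lower), leaving out 1 library gave 125 to 1113 higher and 6 to 843 lower. In Tet minus (330 and 112) it gave 67 to 815 higher and 1 to 525 lower, in Tet plus (79 and 2) 41 to 176 higher and 0 to 35 lower, and for the arm difference 0 to 200 higher and 0 to 355 lower. The highest count over both arms came without Tet plus 3 h replicate 2. Where this leaves a group with 1 library, that library is assumed to vary like the others.

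Without the replicate block, the pairing of libraries by lane, the counts were 93 higher and 5 lower over both arms, 36 and 1 in Tet minus, and 26 and 0 in Tet plus, and 54 of the 115 called genes that are named lost their call. With all 44 libraries in the fit the counts were 643 and 394, 612 and 390, and 126 and 15. With no filter on low counts Tet minus had 582 and 246 and Tet plus 136 and 9. ERCC scaling left 11 lower over both arms, gave 523 and 9 in Tet minus and 1 lower in Tet plus, and called 1 gene higher and 3 lower for the arm difference. It moved the median of all genes by 0.11 over both arms (log2) and by 0.17 in Tet minus. DESeq2 called 163 lower over both arms and 6 lower in Tet plus. RLE scaling kept all 115 named calls.

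These fits were added after the data were seen. Without Tet plus replicate 2 at both times, 942 were higher and 567 lower over both arms (320 and 85 of the genes called with it among them), 672 and 347 in Tet minus, and 132 and 5 in Tet plus. Within lane 8 alone there were 750 and 295, and within lane 4 alone 101 and 3. MALAT1 changed sign within lane 8, at 0.52 (edgeR adjusted p = 0.023) against -0.12. Why these counts moved was not tested. Of the 115 named calls, 48 held under every alternative run, 35 of them histone genes. With 2 libraries a group, 1.5-fold changes within an arm were recovered in 35.8% (Tet minus) and 31.3% (Tet plus) of simulated cases. No library stood apart in the simulated counts, and most changes of that size within an arm may lie below what this design detects.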

Other observations

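Levels at 6 h, a time outside the comparison, are given here as values on 1 scaling of 12 libraries (4 at each of 0, 3 and 6 h, both arms together). The histone genes took 1.41% to 2.58% of gene counts at 6 h, against 1.92% to 3.65% at 3 h. Of all 44 libraries, the 3 h libraries ranked 1, 2, 6 and 12 in histone share and the 0 h libraries 31, 35, 43 and 44. HIST1H2AB was at 45.8 to 65.7 CPM at 6 h, below its 3 h range of 109.8 to 159.9 CPM and above its 0 h range of 10.8 to 12.97 CPM.

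The genes of the immediate early and ERK feedback list did not all have the same order of levels. DUSP5 ranged from 4.35 to 6.73 CPM at 0 h, from 8.96 to 46.4 CPM at 3 h and from 6.68 to 11.4 CPM at 6 h. ETV4 ranged from 1.52 to 6.25 CPM at 0 h, from 7.44 to 23.3 CPM at 3 h and from 14.4 to 44.04 CPM at 6 h. DNAJB1, the chaperone gene that fell by 3 h, was at 139.96 to 214 CPM at 6 h, above its 0 h range of 92.2 to 127 CPM. HJURP was at 95.5 to 155 CPM at 6 h, against 62.8 to 82.2 CPM at 3 h. None of these 6 h levels was tested against 3 h.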
